A study of Mus musculus with 8 samples.

Results

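Yolk sac cells that carried both the endothelial surface protein VE-Cadherin and a green fluorescent protein (GFP) reporter of the erythroid microRNA locus miR-144/451 were compared with cells that carried the reporter alone. The comparison was chosen by the sorting gates in the labels and uses 5 of the 8 libraries of the series. There were 2 double positive pools of 24 cells (VE-Cadherin positive, GFP positive, replicates 7 and 8) and 3 erythroid pools of 25 cells (VE-Cadherin negative, GFP positive, replicates 4 to 6). The other 3 libraries, 25-cell pools that were VE-Cadherin positive and GFP negative, called endothelial (replicates 1 to 3), enter the fit for its estimate of spread, and their values are given beside some genes. All cells came from C57BL/6 yolk sac at stage E11.5, with genotype miR144/451+/GFP in every group, so the erythroid and endothelial cells carry the reporter allele too. The cells were neither cultured nor treated. Whether the pools of a group came from separate embryos is not stated by the labels. The p-values therefore measure the spread between pools only, which may be technical. Polyadenylated RNA of each pool was copied and amplified with 14 cycles of PCR by the Smart-seq2 protocol, which carries no molecular identifiers, so counting intervals and floors cover counting error only.

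The yolk sac makes the first red cells of the embryo. Its wall has a mesoderm-derived layer with the blood vessels and an epithelium, the visceral endoderm. This epithelium takes up nutrients and secretes the plasma proteins and apolipoproteins later made by the liver. Primitive red cells use embryonic globin chains and mature while in circulation. VE-Cadherin, encoded by Cdh5, holds endothelial cells together. Some yolk sac endothelial cells, called hemogenic, give rise to blood cells, and cells in that transition carry features of both.

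The 5 libraries held 7618444, 5518537 and 5291843 counts (erythroid) and 4637930 and 4818074 counts (double positive). At least 1 count was seen for 8673 to 8746 genes in the erythroid libraries and for 14059 and 13980 genes in the double positive ones. Globin genes took 54.5% to 56.5% of erythroid counts and 8.85% and 14.0% of double positive counts. Levels are given as CPM, counts per 1000000 of an effective library size (TMM factors, a trimmed mean of M values), so the CPM of 1 library have no fixed sum. In bulk pools, fewer cells of a type and less RNA per cell cannot be told apart.

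The table held 24454 genes, of which 12136 passed the filter on low counts and were tested. In the double positive pools 3820 genes (31.5% of those tested) were higher and 1283 (10.6%) were lower at an adjusted p under 0.05 by edgeR's quasi-likelihood test. That test stands behind every adjusted p given here, except those of the 2 globin chain ratios. For 8192 genes (67.5%) the 2 groups of libraries did not overlap. The median log2 difference of all tested genes was 0.71, so the double positive pools were the higher ones for most genes. Scaling by library size alone raised that median by 0.90 and gave 5754 higher and 474 lower genes. Upper quartile factors lowered it by 0.26, with 3475 higher and 1702 lower genes. Leaving out double positive replicate 7 or 8 left 2315 or 2401 higher genes and 609 or 674 lower genes. The list medians below are to be read against the all-gene median. A gene at 0 in the erythroid pools passes the filter only through the other libraries, so counts of higher members describe the lists and are no test of them. In the scatter of mean levels, red cell genes lie mostly below the diagonal, and endothelial and visceral endoderm genes mostly above it.

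**Figure D1:**
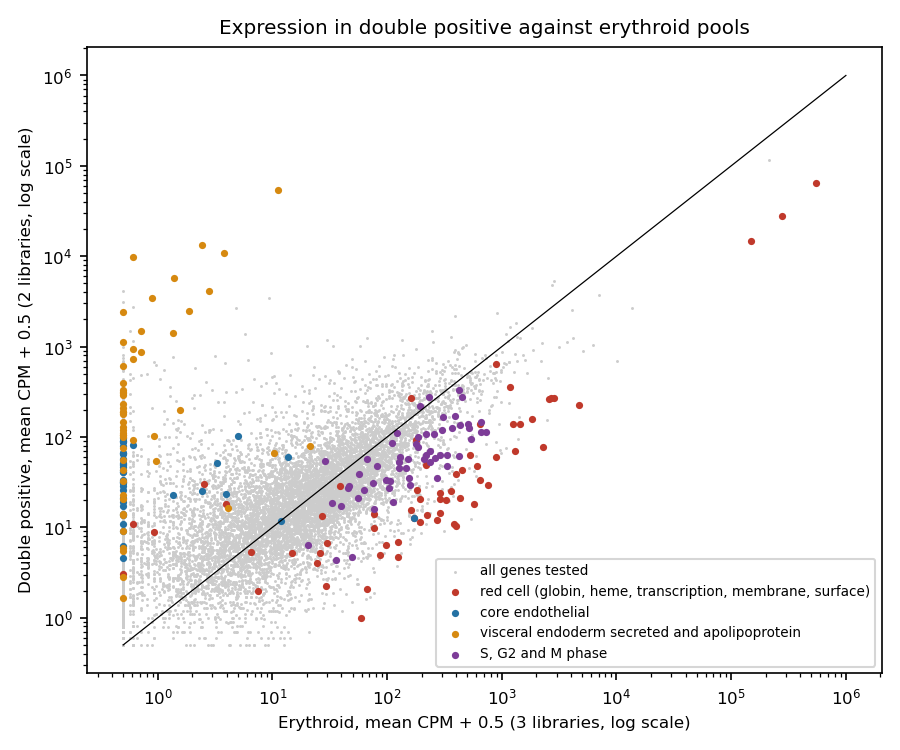
Mean CPM + 0.5 of each tested gene in the 3 erythroid (x axis) and 2 double positive (y axis) libraries, both on log scales, with the line of equal level. Red cell genes lie mostly below the line, S, G2 and M phase genes mostly below it, and endothelial and visceral endoderm genes above it, many at 0 counts in the erythroid libraries (left edge).

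The genes nearest to the 2 sorting signals were read first. Cdh5 (chromosome 8, 104101625 to 104144511 of GRCm38) had no count in erythroid libraries 4, 5 and 6 and stood at 45.8 and 56.0 CPM in double positive libraries 7 and 8, at least 179-fold higher (adjusted p = 1.82e-05), against 172 to 233 CPM in the endothelial libraries. The table has no GFP row. Counts at Mir144 (chromosome 11, 78073005 to 78073070), the microRNA gene whose locus carries the reporter, were 336, 335 and 341 CPM in the erythroid and 21.95 and 28.5 CPM in the double positive libraries (13.4-fold lower, log2 difference −3.74 ± 0.24 (SE), adjusted p = 1.10e-05). The protocol primes polyadenylated RNA, and mature microRNAs are not polyadenylated, so these counts are not levels of mature miR-144. Mir451a and Mir451b had 0 counts in all 5 libraries. The 3 mature microRNAs of the locus are shown because they name the reporter. Their RefSeq sequences (GRCm38.p6, plus strand) have the seed, bases 2 to 8, in capitals, and the 3 seeds differ.
mmu-miR-144-5p, chr11:78073010-78073032: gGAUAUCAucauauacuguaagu
mmu-miR-144-3p, chr11:78073047-78073066: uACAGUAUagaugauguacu
mmu-miR-451a, chr11:78073186-78073207: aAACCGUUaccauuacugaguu

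The microRNA list holds the locus, the processing machinery, 2 genes known as miR-144/451 targets (Ywhaz and Cab39), and Foxo3. Of its 14 members 11 were tested, with 2 higher and 2 lower, beside 31.5% and 10.6% of all tested genes. Ywhaz, which encodes the adaptor protein 14-3-3 zeta, stood at 72.4, 62.7 and 66.4 CPM in erythroid and 343 and 369 CPM in double positive libraries (5.30-fold higher, log2 difference 2.40 ± 0.16 (SE), adjusted p = 1.55e-05). Cab39, a partner of the kinase LKB1, was uneven in the erythroid pools, at 0, 20.3 and 2.93 CPM, against 79.0 and 63.9 CPM (adjusted p = 0.046), and its call was lost under 9 of 19 alternatives, among them leaving out either double positive replicate. Foxo3, a transcription factor of red cell maturation, stood at 13.0, 10.5 and 0.326 against 1.34 and 1.42 CPM and did not pass (adjusted p = 0.235). Of the processing genes only Ago2, the slicing Argonaute that matures miR-451, passed, at 47.5, 43.1 and 24.1 against 16.6 and 16.7 CPM (2.30-fold lower, adjusted p = 0.0419), a call lost under 10 of 19, among them library size alone.

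Embryonic hemoglobin transcripts were abundant in the double positive pools but about an order of magnitude below the erythroid pools. Hbb-y, the main embryonic beta-type chain, stood at 561580.0, 555963 and 530666 CPM in erythroid and 47253 and 82526 CPM in double positive libraries (8.47-fold lower, log2 difference −3.08 ± 0.29 (SE), adjusted p = 8.38e-05). Hbb-bh1, the other embryonic beta-type chain, stood at 156891, 138146 and 148676 against 10934 and 18197 CPM (10.2-fold lower, log2 difference −3.34 ± 0.31 (SE), adjusted p = 7.57e-05). For Hba-x, the embryonic alpha-type chain, the values were 283128, 287947 and 260012 against 20206 and 36148 CPM (9.83-fold lower, log2 difference −3.30 ± 0.43 (SE), adjusted p = 0.000429). All 3 chains were lower in both double positive libraries than in any erythroid library, and replicate 8 held 1.75 times the summed CPM of replicate 7. With limma-voom only Hbb-bh1 passed. The endothelial libraries held 13.1, 20.3 and 24.5 CPM of the 3 chains together. Of the 7 adult-type globin rows 6 had 0 counts in all 5 libraries, and their reads are uncertain because the copies are nearly identical. Within libraries the chain proportions were close: Hbb-bh1 per Hbb-y was 0.279, 0.248 and 0.280 in erythroid and 0.231 and 0.221 in double positive pools (exact two-sided permutation p = 0.2). Hba-x per Hbb-y was 0.504, 0.518 and 0.490 against 0.428 and 0.438 (exact p = 0.1, the smallest that 3 against 2 libraries can give). Both are 0.2 after adjustment over the 2 ratios, though each ratio was below every erythroid value in both double positive pools.

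The heme pathway was lower almost throughout: 14 of 17 genes were lower, 1 was higher, and the median log2 difference was −3.10. Alas2, the erythroid form of the enzyme that starts heme synthesis, stood at 4646, 4709 and 4702 CPM in erythroid and 166 and 286 CPM in double positive libraries (20.8-fold lower, log2 difference −4.38 ± 0.51 (SE), adjusted p = 0.000261). Its housekeeping form Alas1 was the exception, at 0, 6.02 and 0 against 38.6 and 21.4 CPM (14.9-fold higher, adjusted p = 0.0378), a call lost under 8 of 19 alternatives, among them DESeq2 and leaving out either double positive replicate. The mitochondrial iron importer Slc25a37 (mitoferrin 1) stood at 1805, 1893 and 1795 against 161 and 157 CPM (11.5-fold lower, adjusted p = 8.67e-06). Fech, which inserts iron into the ring, averaged 2690.4 against 267 CPM, and Urod 1450.2 against 138 CPM. No erythroid and double positive value of these 4 lower genes overlapped, as for 67.5% of all tested genes.

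Erythroid transcription factors followed the same direction, with 11 of 16 lower, 1 higher and a median of −2.89. Without double positive replicate 7 or 8 the lower count was 7 or 8. Klf1, which drives the beta-type globin and membrane genes, stood at 748, 764 and 775 CPM in erythroid and 25.6 and 32.0 CPM in double positive libraries (26.5-fold lower, log2 difference −4.73 ± 0.20 (SE), adjusted p = 1.08e-05). Gata1, the master regulator of the lineage, stood at 239.8, 327 and 296 against 13.2 and 14.9 CPM (20.5-fold lower, adjusted p = 3.98e-05). Ikzf1, a zinc finger factor of blood cells, stood at 69.6, 156 and 147 against 4.96 and 3.46 CPM (29.4-fold lower, adjusted p = 0.00114). The Gata1 partners Tal1 and Lmo2, which endothelial cells also use, averaged 170.3 against 12.3 CPM and 76.3 against 9.40 CPM, both lower. The 1 higher member was Kat2b, an acetyltransferase of wide expression, at 0.422 against 8.44 CPM. Its call was lost with only the 5 libraries compared, and without erythroid replicate 4 or 6 or double positive replicate 7 or 8.

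The red cell membrane and skeleton list had the lowest median of the 38 lists: 12 of 12 members were lower and the median was −4.34. Slc4a1, the anion exchanger band 3, stood at 2160.3, 2344 and 2289 CPM in erythroid and 68.0 and 84.3 CPM in double positive libraries (29.8-fold lower, log2 difference −4.89 ± 0.24 (SE), adjusted p = 4.65e-06). Epb42, the band 3 anchor protein 4.2, stood at 535, 594 and 579 against 13.6 and 21.8 CPM (32.2-fold lower, adjusted p = 1.11e-05). Dmtn, the actin-bundling dematin, stood at 353, 417 and 432 against 8.21 and 11.6 CPM (40.5-fold lower, adjusted p = 0.00178), and Add2, beta-adducin, at 344, 381 and 415 against 10.3 and 10.4 CPM (36.7-fold lower, adjusted p = 0.00168). Epb41, the spectrin-binding protein 4.1, was lower by least, at 192 against 20.2 CPM on average (9.50-fold lower, adjusted p = 0.0224). That call was lost with library size alone and without double positive replicate 7 or 8, where 11, 10 and 10 of the 12 were lower. None of the 12 genes had overlapping libraries, beside 67.5% of all tested genes without overlap.

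Most blood group and surface genes were lower. Of 15 tested, 12 were lower and 2 higher (median −3.61). The Rh proteins Rhag and Rhd stood at 955, 819.7 and 899.9 and at 1230.2, 1271 and 1371 CPM in erythroid libraries and at 46.2 and 71.6 and at 52.9 and 86.5 CPM in double positive libraries (15.1-fold lower, adjusted p = 5.92e-05, and 18.5-fold lower, adjusted p = 1.82e-05). Tfr2, a second transferrin receptor and the largest fall among genes at 50 CPM or more, stood at 72.2, 49.4 and 53.4 against 0.191 and 0.814 CPM (116-fold lower, log2 difference −6.81 ± 0.73 (SE), adjusted p = 0.000467). Slc14a1, the Kidd urea transporter, stood at 76.6, 58.9 and 64.5 against 1.15 and 2.04 CPM (41.9-fold lower, adjusted p = 0.000151). By contrast, Bsg (basigin), a chaperone of monocarboxylate transporters, averaged 886 against 640.4 CPM and the integrin-associated protein Cd47 179 against 91.0 CPM. Both were called lower, Cd47 not with library size alone and neither without double positive replicate 7 or 8, and Bsg also not without any 1 erythroid replicate. With library size alone Bsg was called higher, and the list had 4 higher and 10 lower. The glucose transporter Slc2a1 (159.6 against 268 CPM) did not pass. The higher ones were the adhesion receptor Cd44 (0.109 against 10.4 CPM) and the water channel Aqp1 (0 against 2.57 CPM).

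Epor, the erythropoietin receptor, stood at 190.4, 241 and 226 CPM in erythroid and 10.1 and 10.4 CPM in double positive libraries (21.4-fold lower, log2 difference −4.41 ± 0.52 (SE), adjusted p = 0.000259), and Bcl2l1, the survival gene it induces, at 218, 184 and 194 against 19.1 and 14.2 CPM (11.9-fold lower, adjusted p = 6.01e-05). Socs2 and Pim1, both STAT5 targets, were also lower, calls lost without double positive replicate 7 or without replicate 8. Kit stood at 0 in the erythroid libraries and 2.86 and 5.09 CPM in the double positive ones (at least 13.9-fold higher, adjusted p = 0.00883), and its ligand Kitl at 0 against 33.2 and 30.9 CPM (at least 113-fold higher, adjusted p = 0.000117). In all, 4 of 14 were higher, a share close to the 31.5% of all tested genes, and 4 were lower, beside 10.6% of all tested genes. The median of −0.76 became 0.15 with library size alone and 0.65 with a minimum count of 50. Without double positive replicate 7, or without replicate 8, the lower count was 2. Of 23 iron genes 12 were lower and 8 higher, the latter again close to the share of all genes (median −0.78, or 0.13 with library size alone, and 5 higher without double positive replicate 7). Among the lower ones, Tfrc, the transferrin receptor, fell from 370.1, 430.0 and 470.3 to 99.7 and 128 CPM (3.72-fold lower, adjusted p = 0.000241), and Fth1, the ferritin heavy chain, from 13729.8, 14271 and 13070.3 to 2280.4 and 3127 CPM (5.06-fold lower, adjusted p = 0.000118). Among the higher ones, Trf, transferrin itself, stood at 0, 0.317 and 0 against 11096 and 8528 CPM (103250.0-fold higher, 95% counting interval 18531 to 4078160.0), the heme oxygenase Hmox1 at 0, 0.317 and 0 against 102 and 83.2 CPM (974-fold higher, 95% counting interval 175 to 38485), and the exporter Slc40a1 at 89.4, 65.0 and 93.5 against 162 and 134 CPM (1.79-fold higher, adjusted p = 0.0418). The Slc40a1 call was lost under 8 of 19 alternatives, among them upper quartile factors, limma-voom and leaving out any 1 erythroid or double positive replicate.

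Among genes of terminal maturation and organelle clearance 11 of 23 were lower and 1 higher (median −1.42, 9 lower and 4 higher with library size alone, and 7 lower without double positive replicate 7 or without replicate 8). Trim10, a RING finger gene of red cells, stood at 486, 579 and 546 CPM in erythroid and 13.6 and 10.4 CPM in double positive libraries (44.9-fold lower, log2 difference −5.48 ± 0.24 (SE), adjusted p = 1.18e-05). Hemgn, a nuclear protein of erythroblasts, stood at 2333, 2424 and 2689 against 115 and 195 CPM (16.02-fold lower, adjusted p = 7.57e-05). The antioxidant enzymes Gpx1 and Prdx2 stood at 6238, 6517 and 5807 and at 5162, 5144 and 4865 CPM in erythroid libraries, against 902 and 1192 and 702 and 1064 CPM (5.91-fold lower, adjusted p = 3.04e-05, and 5.73-fold lower, adjusted p = 8.44e-05). Alox15, a lipoxygenase that attacks organelle membranes, and Ypel4 had 0 counts in both double positive libraries, against means of 5.40 and 8.15 CPM, and both calls were lost without double positive replicate 7 or without replicate 8. The autophagy gene Map1lc3b was the 1 higher member, at 219 against 311 CPM (lost with upper quartile factors, and without erythroid replicate 6 or double positive replicate 8), and catalase (Cat) did not pass, at 308 against 300.2 CPM.

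Promoters of 2 of these lower genes are shown for their GATA motif, since Gata1 binds such letters. The letters AGATAA, on either strand within the 250 bases before the start, were found in 9.99% of 32851 RefSeq promoters (GRCm38.p6). Among promoters of tested genes the share was 6.31% for higher genes, 7.54% for lower genes and 5.60% for genes that did not pass. These letters were in 4 of 16 promoters of the surface list, 4 of 26 of the transcription factor list and 2 of 12 of the membrane list. The heme list had 1 of 16, the maturation list 1 of 20 and the embryonic globins 0 of 2. Lists of other cell types ran from 0 of 14 (arterial) to 5 of 15 (granulocyte and mast cell), with 5 of 22 for endoderm transcription factors. High shares were thus not particular to the red cell lists. The promoters of Alas2 (120 bases) and Trim10 (200 bases), read 5′ to 3′ up to the base before the start, each carry 1 match on the opposite strand, in capitals. A match is a description of letters, not of binding.
Alas2 promoter, chrX:150547297-150547416, plus strand: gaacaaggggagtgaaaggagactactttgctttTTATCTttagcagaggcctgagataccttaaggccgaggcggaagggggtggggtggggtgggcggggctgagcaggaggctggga
Trim10 promoter, chr17:36869374-36869573, plus strand: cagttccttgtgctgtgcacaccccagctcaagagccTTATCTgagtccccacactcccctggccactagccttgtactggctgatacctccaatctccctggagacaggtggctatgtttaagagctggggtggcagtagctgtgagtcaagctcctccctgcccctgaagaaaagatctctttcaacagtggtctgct

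Among the other largest falls at a mean of 50 CPM or more were genes outside the gene lists. Art4 (the Dombrock blood group carrier) stood at 71.0, 80.8 and 61.2 CPM in erythroid and 1.15 and 1.22 CPM in double positive libraries (60.0-fold lower, adjusted p = 0.00206). Samd14, a SAM domain gene, was uneven in the erythroid pools at 101, 39.6 and 56.0 CPM, yet every value was above the 0.573 and 1.63 CPM of the double positive pools (59.6-fold lower, adjusted p = 0.0012). Chst10, a sulfotransferase, stood at 85.7, 82.7 and 62.2 against 1.91 and 0.814 CPM (56.4-fold lower). Slc6a9, the glycine transporter that feeds heme synthesis, stood at 130.1, 113 and 119 against 2.48 and 4.07 CPM (36.9-fold lower), and Adra2b, an alpha-2 adrenergic receptor, at 361, 292 and 286 against 8.59 and 8.75 CPM (36.1-fold lower). Art4 and Slc14a1 had counts in the endothelial libraries as well (0 to 2.44 and 4.75 to 11.9 CPM), while Samd14, Chst10, Slc6a9 and Adra2b had none there.

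Since red cell genes fell by unequal amounts, they were also compared per embryonic globin count, an alternative added after the data were seen. On that scale, where each library is divided by its summed counts of the 3 chains, 29 of 12044 genes (0.241%) were lower in the double positive pools and 10460 (86.8%) higher. Of 83 genes in the 5 red cell lists (heme, transcription factors, membrane, surface, maturation), 15 were lower, 28 higher and 40 did not pass. The lower count was 12 when scaled to Hba-x alone, and 8 without erythroid replicate 6 and 25 without double positive replicate 7. Membrane and skeleton genes were lower per globin count for 6 of 12 members, with none higher and a median of −1.12 (4 to 8 lower when 1 library was left out). Heme genes were lower for 1 of 17, higher for 5, with a median of 0.12 (1 to 4 lower when 1 library was left out, the 4 without double positive replicate 7). Erythroid transcription factors had 1 lower and 4 higher of 16 (median 0.35), surface genes 4 lower and 5 higher of 15, and maturation genes 3 lower and 14 higher of 23 (median 1.89). Slc4a1 stood at 2157, 2386 and 2437 counts per 1000000 globin counts in the erythroid pools and 867 and 616 in the double positive pools (log2 difference −1.65 ± 0.36 (SE), adjusted p = 0.000128). Alas2 stood at 4638, 4795 and 5005 against 2111 and 2088 (log2 difference −1.20 ± 0.33 (SE), adjusted p = 0.00143). Klf1, the 1 lower transcription factor, stood at 747, 778 and 826 against 326 and 233 (log2 difference −1.49 ± 0.43 (SE), adjusted p = 0.00213). Slc4a1, Alas2 and Klf1 were lower per globin count under each of the 6 alternatives run, and for all 3 the groups of libraries lay apart. Visceral endoderm and endothelial transcripts, given below, were present in the double positive pools, and any part of theirs in genes that are higher on this scale was not tested.

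**Figure D2:**
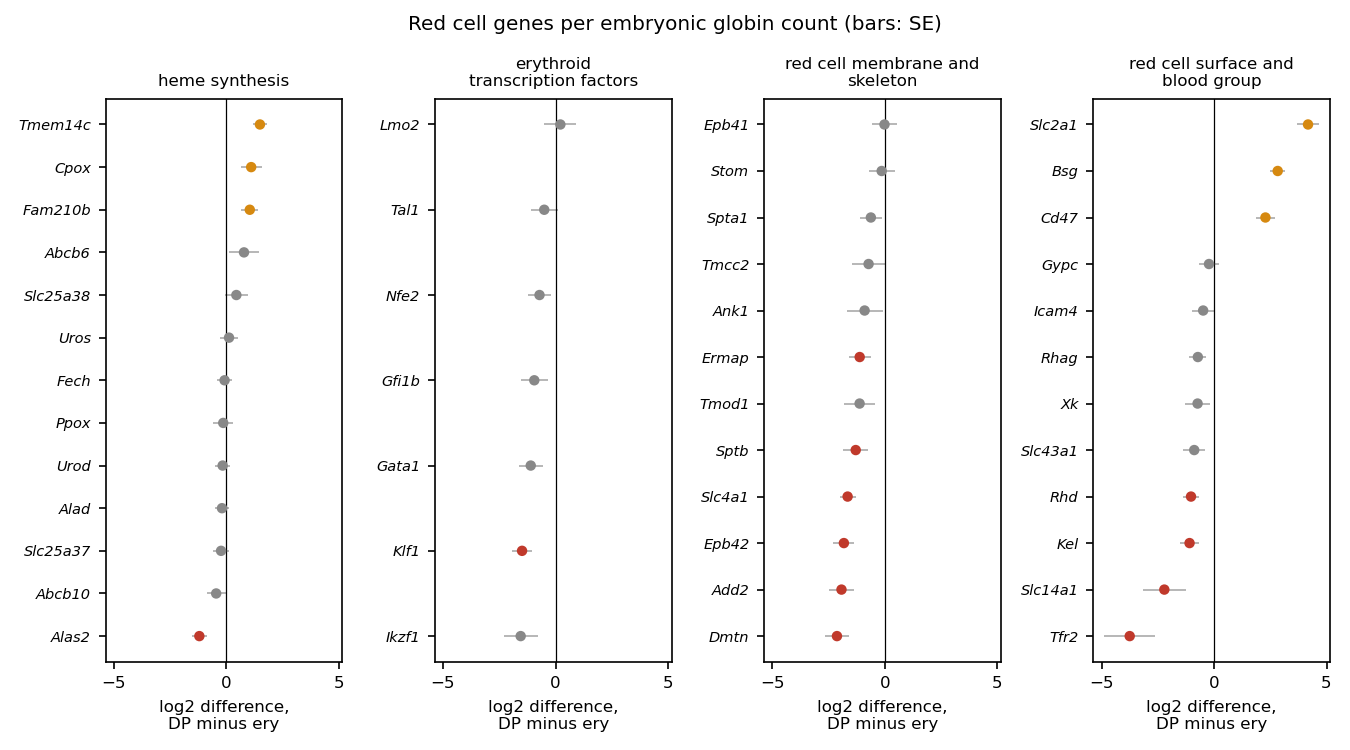
Log2 difference, double positive minus erythroid, of red cell genes after each library was divided by its embryonic globin counts, for the genes reported here with a mean of at least 50 counts per 1000000 globin counts in the erythroid pools. Bars are the SE, red points are lower and orange points higher at an adjusted p under 0.05, and grey points did not pass. Most heme genes lie near 0, while Slc4a1, Epb42, Add2, Dmtn, Klf1, Alas2 and Tfr2 lie below it.

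Endothelial transcripts were nearly absent from the erythroid pools and present in the double positive pools. Of 40 core endothelial genes 38 were higher, 1 was lower (Tal1, shared with red cells) and 1, Vwf, did not pass. In the erythroid libraries 31 of the 40 had no count at all. The median log2 difference was 10.22, or 6.75 with genes at 0 set to their bound. Pecam1, an adhesion protein of the vessel lining, stood at 0 against 44.1 and 52.5 CPM in double positive libraries (at least 169-fold higher, adjusted p = 3.00e-05), and at 309 to 499 CPM in the endothelial libraries. Kdr, the main receptor for vascular endothelial growth factor, stood at 0 against 30.7 and 49.7 CPM (at least 141-fold higher, adjusted p = 0.000129). Esam, a junction protein, stood at 0 against 59.2 and 68.4 CPM (at least 224-fold higher), and Clec14a, a lectin of vessels, at 0 against 61.1 and 71.6 CPM (at least 233-fold higher). The list summed to 206, 198 and 220.5 CPM in the erythroid, 1455 and 1922 in the double positive and 11553, 8084 and 11407 in the endothelial libraries. Tal1 took 170.3 CPM of the erythroid sums on average.

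Members of both the sinusoidal and venous list and the arterial list were higher, and vessel type was not tested. Sinusoidal and venous genes were higher for 13 of 15 and lower for none. The scavenger receptor Stab2 stood at 0, 0.317 and 0 CPM in erythroid and 173 and 212 CPM in double positive libraries (2022-fold higher, 95% counting interval 363 to 79853). Lyve1, the hyaluronan receptor of sinusoidal and lymphatic vessels, stood at 0 against 73.3 and 66.6 CPM (at least 245-fold higher, adjusted p = 4.56e-06). Dab2, an adaptor of endocytosis, stood at 0, 0.317 and 0.977 against 724 and 627 CPM (1566-fold higher), but visceral endoderm uses it as well. Arterial genes were higher for 11 of 17 and lower for none, at lower levels: Notch1, the receptor that sets arterial fate, stood at 0 against 11.6 and 14.7 CPM (at least 46.1-fold higher, adjusted p = 0.000396), and Nrp1, a co-receptor, at 0 against 31.5 and 34.4 CPM (at least 116-fold higher). Hey2, Jag2, Bmx, Sema3g and Cxcr4 were under 1 CPM in the double positive pools on average and did not pass. Hey1 did not pass either. Matrix genes were higher for 15 of 16: the collagen IV chain Col4a1 stood at 0 against 333 and 226 CPM (at least 979.8-fold higher) and Sparc, a matrix-binding protein, at 0 against 397 and 378 CPM (at least 1358-fold higher). Endothelial, visceral endoderm and mesenchymal cells all make these proteins.

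Regulators of hemogenic endothelium were split: of 19 tested, 9 were higher and 6 lower. The higher ones were Cd34, Cbfb, Fli1, Erg, Gata2, Kit, Meis1, Mecom and Hhex, most of which vessel cells also express. Gata2 stood at 0 against 2.29 and 4.88 CPM (at least 12.6-fold higher, adjusted p = 0.00926) and Cbfb, the partner of Runx1, at 0 against 27.5 and 30.1 CPM (at least 101-fold higher). The lower ones were Gfi1b, Lmo2, Tal1, Lyl1, Itga2b and Adgrg1, the last a call lost with library size alone and without erythroid replicate 4 or 6 or double positive replicate 8. Gfi1b, a repressor of the endothelial program in that setting and a red cell factor, stood at 157, 192 and 232 against 8.59 and 13.4 CPM (17.6-fold lower, adjusted p = 0.00203). Runx1, which starts the transition to blood, stood at 4.19, 0 and 2.93 against 1.15 and 0.611 CPM and did not pass (adjusted p = 0.461). Gfi1 and Myb had 0 counts in all 5 libraries. Ptprc, which encodes the pan-blood surface protein CD45, stood at 0 and 1.22 CPM in the double positive pools and did not pass.

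**Figure D3:**
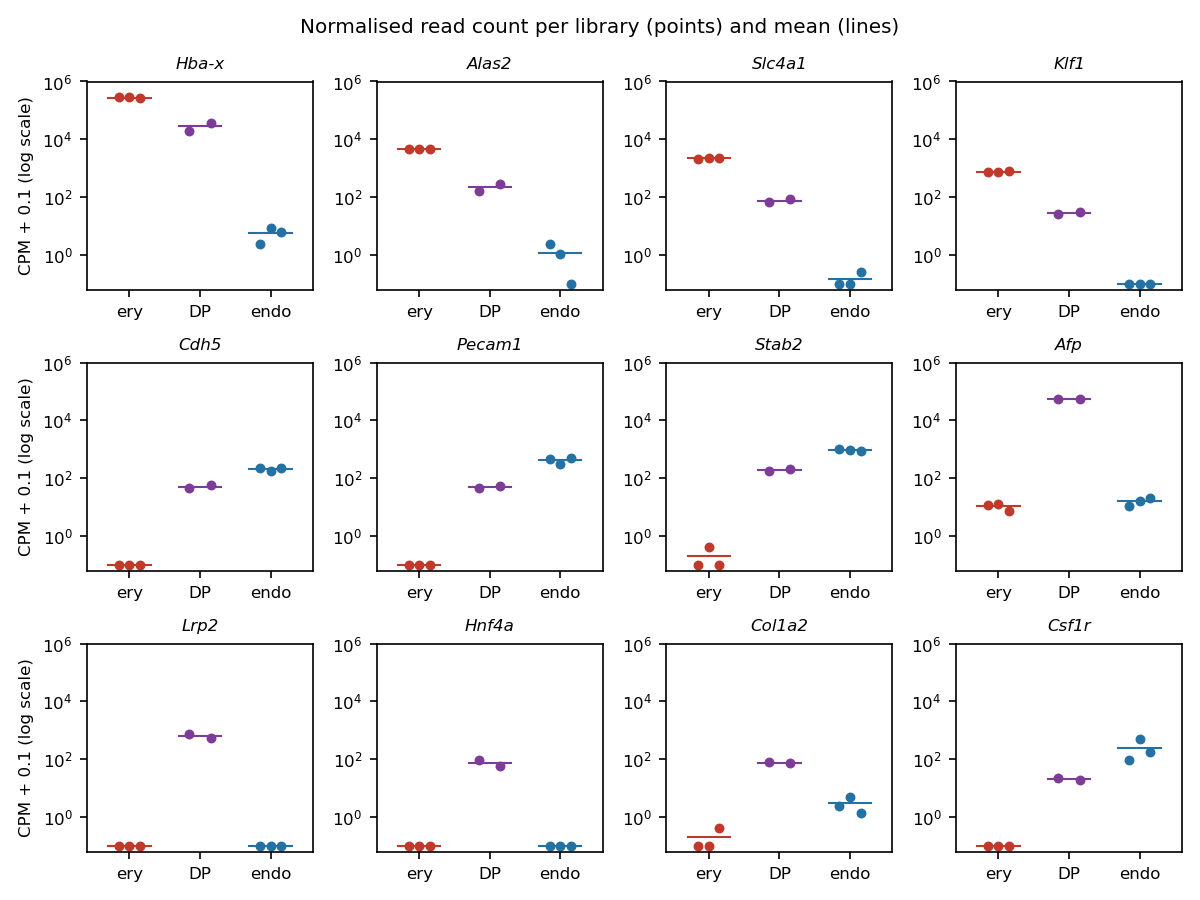
Level of 12 genes in each library (points) with the mean (lines), as CPM + 0.1 on a log scale, for erythroid (ery), double positive (DP) and endothelial (endo) libraries. Red cell genes (top row) and endothelial genes lie between the other groups in the double positive libraries, while Afp, Lrp2, Hnf4a and Col1a2 are highest there.

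Visceral endoderm transcripts were abundant in the double positive pools and nearly absent from the erythroid pools. Of 34 secreted protein genes 31 passed the filter, and of these 30 were higher and none lower (median 12.34, or 9.68 with genes at 0 at their bound). The list summed to 20.3, 21.5 and 11.7 CPM in the erythroid, 92773 and 92452 CPM in the double positive and 59.0, 168 and 89.1 CPM in the endothelial libraries. Afp, alpha-fetoprotein, the fetal counterpart of albumin, stood at 12.1, 12.7 and 7.17 CPM in erythroid and 53148 and 55394 CPM in double positive libraries (5097-fold higher, log2 difference 12.30 ± 0.38 (SE), adjusted p = 1.57e-06). Rbp4, the retinol carrier of plasma, stood at 0.466, 1.90 and 0.326 against 5938 and 5659 CPM (6461-fold higher, adjusted p = 1.57e-06). Ttr, the thyroid hormone carrier transthyretin, stood at 6.05, 2.53 and 1.30 against 10123 and 11402 CPM (3265-fold higher, adjusted p = 3.10e-06). The fibrinogen chains Fga, Fgb and Fgg averaged 861, 1412 and 1504 CPM in the double positive pools and under 1 CPM each in the erythroid pools. Spp2, a secreted phosphoprotein, stood at 0 against 4387 and 3932 CPM (at least 14591-fold higher, adjusted p = 4.56e-06). Gpx3, the plasma glutathione peroxidase, stood at 0 against 3508 and 2727 CPM (at least 10934-fold higher), and Spink1, a trypsin inhibitor, at 0 against 1194 and 1067 CPM (at least 3966-fold higher). Copies of the Serpina1 family are nearly identical, so their split is uncertain. Tmem37, Pcbd1, Lgals2 and Car4 were each at 0 in the erythroid pools and at 645 to 837 CPM in the double positive ones.

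Lipid carriage and uptake genes moved with them. Apolipoprotein and lipid transport genes were higher for 21 of 22 and lower for none. Apoa1, the main protein of high density lipoprotein, stood at 0, 4.75 and 0.977 CPM in erythroid and 13667 and 12896 CPM in double positive libraries (6954-fold higher, adjusted p = 4.84e-05), and Apob, the scaffold of low density lipoprotein, at 0, 0 and 0.326 against 772 and 672 CPM (7599-fold higher, 95% counting interval 1364 to 300145). Apoa4, a lipid carrier of the gut and yolk sac, was uneven in the double positive pools, at 3312 and 1497 CPM against 0 (at least 8434-fold higher). Endocytosis and apical surface genes were higher for 24 of 27. Lrp2 (megalin) and Cubn (cubilin), the paired uptake receptors of the apical surface, stood at 0 against 718 and 529.6 CPM and at 0.233, 0 and 0 against 1582 and 1375 CPM. The first was at least 2189-fold higher and the second 15556-fold higher, 95% counting interval 2792 to 614449. Folr1, a folate receptor, stood at 0 against 346 and 381 CPM (at least 1275-fold higher). The 1 lower member, Slc39a8, a zinc and manganese importer, averaged 939 against 138 CPM.

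Nuclear and epithelial genes of that layer were higher too. Of 22 endoderm transcription factors 19 passed the filter, of which 16 were higher and none lower, though the count was 8 without double positive replicate 7 or without replicate 8. Hnf4a, which directs the plasma protein genes, stood at 0 in the erythroid and the endothelial libraries and at 95.1 and 56.8 CPM in the double positive libraries (at least 266-fold higher, adjusted p = 0.000907). Cited1, a transcriptional co-activator, stood at 0.233, 0 and 0 against 389 and 463 CPM (4484-fold higher, 95% counting interval 805 to 177122). Sox17 and Hhex, also on the list, are used by endothelium, and stood at 9.55 and 7.73 and 7.06 and 11.2 CPM in the double positive against 55.7 to 111 and 46.7 to 81.0 CPM in the endothelial libraries. Of 32 epithelial genes 30 passed the filter, with 26 higher and none lower. Cdh1, the epithelial cadherin, stood at 0 against 114 and 88.9 CPM (at least 355-fold higher, adjusted p = 0.000233), Epcam, an epithelial adhesion protein, at 0 against 246 and 235 CPM (at least 843-fold higher), and Krt18, a simple epithelial keratin, at 0 against 1052 and 903 CPM (at least 3428-fold higher).

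**Figure D4:**
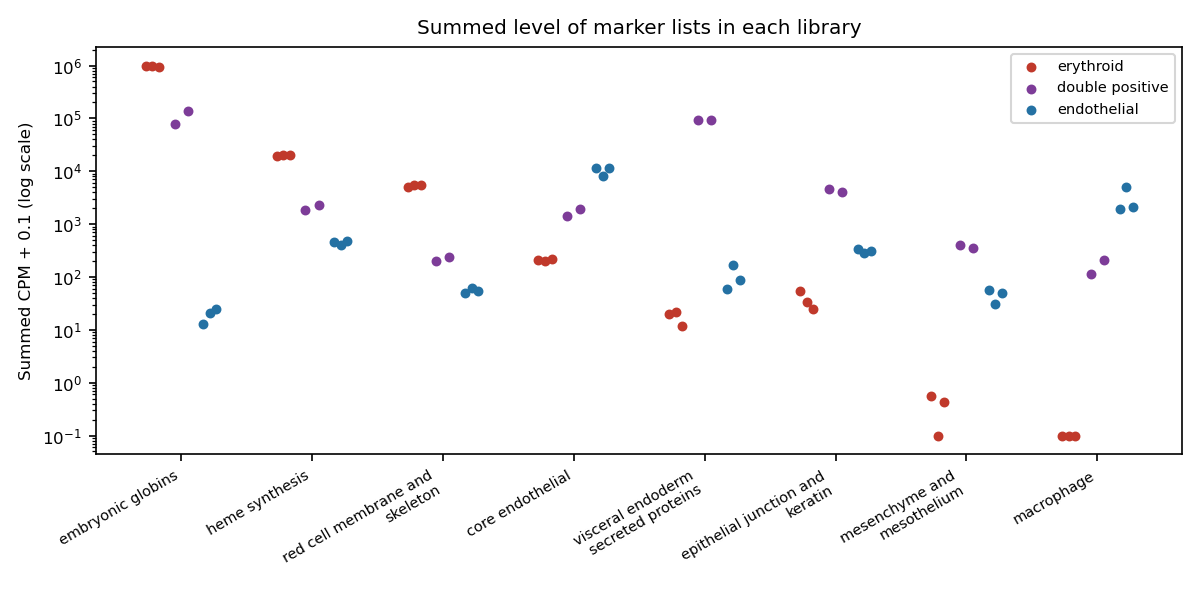
Summed CPM + 0.1 (log scale) of 8 marker lists in each erythroid, double positive and endothelial library. In the double positive libraries the visceral endoderm and epithelial lists are above both other groups, and the globin, heme, membrane and endothelial lists lie between them.

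Markers of other cell types were also in the double positive pools. Mesenchyme and mesothelium genes summed to 401 and 358 CPM there and to 0.466, 0 and 0.326 CPM in the erythroid pools. Of 20 genes 10 passed the filter, and those were higher (6 of 9 without double positive replicate 8), while Msln, Thy1 and Prrx1 had 0 counts in all 5 libraries. Col1a2, a chain of fibrillar collagen, stood at 0, 0 and 0.326 against 80.0 and 73.5 CPM (807-fold higher, 95% counting interval 145 to 31892). All 20 macrophage genes had 0 counts in the erythroid pools, and in the double positive pools the list summed to 115 and 212 CPM, of which Mrc1, a receptor that sinusoidal endothelium shares, took 66.1 and 91.4 CPM. Of 19 tested 5 were higher, beside 31.5% of all tested genes. That count was 10 with DESeq2 and 10 with library size alone. Csf1r, a growth factor receptor of macrophages, stood at 22.3 and 18.9 CPM (at least 72.4-fold higher, adjusted p = 0.00341). Of 10 megakaryocyte and platelet genes tested 2 were higher and 1, Itga2b, was lower, beside 31.5% and 10.6% of all tested genes. That list summed to 78.0, 63.1 and 40.7 CPM in the erythroid and 17.0 and 91.2 CPM in the double positive pools. Its member Pf4, the platelet chemokine gene, differed between the double positive pools, at 0.955 and 47.8 CPM. Its call (adjusted p = 0.0222) was lost without replicate 8 and with limma-voom. Of 16 granulocyte and mast cell genes 13 had no count in any of the 5 libraries, and of 12 lymphoid genes 9. The part of these cell types in the differences given above was not tested.

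Replication genes were lower in the double positive pools. Of 30 S phase genes 22 were lower and none higher (median −1.90), and with library size alone 17 were lower and 2 higher. Mcm2, a subunit of the replicative helicase, stood at 441, 379.6 and 447 CPM in erythroid and 65.1 and 56.6 CPM in double positive libraries (6.94-fold lower, log2 difference −2.79 ± 0.21 (SE), adjusted p = 2.56e-05). Rrm1, of the enzyme that makes deoxynucleotides, stood at 540.0, 509 and 573 against 110.0 and 80.4 CPM (5.68-fold lower, adjusted p = 3.60e-05). Of 28 G2 and M phase genes 20 were lower and none higher (median −1.27). That count was 12 or 11 without double positive replicate 7 or 8, and with library size alone it was 5, with 3 higher. Mki67, a marker of cycling cells, stood at 616, 641 and 709.7 against 107 and 116 CPM (5.87-fold lower, adjusted p = 9.19e-06). Cdk1 (231 against 279 CPM) and Birc5 (424 against 330.1 CPM) did not pass. The endothelial pools held 115 to 126 CPM of Mki67, next to the double positive level.

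The cyclins and their inhibitors changed by member. Ccnd3, the D-type cyclin of erythroblasts, stood at 1227, 1418 and 1479 CPM in erythroid and 86.1 and 105 CPM in double positive libraries (14.4-fold lower, adjusted p = 1.75e-05), whereas Ccnd1 stood at 0 against 20.4 and 32.2 CPM (at least 92.2-fold higher, adjusted p = 0.000111). The inhibitor Cdkn1c, an imprinted gene, stood at 2.09, 0 and 0 against 193 and 126 CPM (228-fold higher, adjusted p = 0.000148). Myc, a driver of growth, stood at 106, 85.2 and 58.6 against 11.3 and 13.8 CPM (6.63-fold lower, adjusted p = 0.000246). In all 6 of 19 were higher, close to the share of all genes, and 5 lower.

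Glycolytic genes were higher for 14 of 22 and lower for 5. The lower ones were Bpgm, which makes the hemoglobin ligand bisphosphoglycerate, at 957 against 71.7 CPM on average, the pyruvate kinase of red cells and liver, Pklr, at 157 against 26.4 CPM, and Hk1, Pfkm and Pfkl. The Bpgm call was lost without double positive replicate 7, and the Pfkl call with library size alone and without double positive replicate 8. Among the higher ones, Pkm, the other pyruvate kinase, stood at 42.6, 49.4 and 51.1 against 391 and 245 CPM (6.66-fold higher, adjusted p = 2.51e-05), and Ldha, lactate dehydrogenase A, at 227, 235 and 279 against 1828 and 1161 CPM (6.05-fold higher, adjusted p = 2.98e-05). Aldoa, Tpi1, Gapdh, Pgk1 and Pgam1, enzymes of the middle steps, were higher too. So were Hk2 and Pfkp, but the Hk2 call was lost without erythroid replicate 4 or 6 and without double positive replicate 7 or 8, and the Pfkp call under 10 of 19 alternatives, among them upper quartile factors, DESeq2 and leaving out either double positive replicate.

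Cholesterol synthesis was higher for 22 of 24 genes and lower for none (median 3.01). Insig1, which holds the pathway back when sterols are plentiful, stood at 8.61, 11.4 and 5.21 CPM in erythroid and 101 and 143 CPM in double positive libraries (14.5-fold higher, log2 difference 3.85 ± 0.37 (SE), adjusted p = 9.21e-05), and Dhcr7, the last step, at 9.31, 7.60 and 4.89 against 87.8 and 111 CPM (13.7-fold higher). Srebf2, the factor that switches these genes on, averaged 38.2 against 28.8 CPM and did not pass.

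Genes of the secretory path and the lysosome were higher as well. Of 32 secretion genes 27 were higher and 2 lower (median 1.498). P4hb, a protein disulfide isomerase, stood at 136, 154 and 116 against 1271 and 1087 CPM (8.71-fold higher, adjusted p = 5.19e-06). The lower ones were Sec61g and Atf4, and with library size alone none was lower. The Sec61g call was also lost without erythroid replicate 4 or 5 or double positive replicate 7. Of 28 lysosome genes 24 were higher (median 3.54) and 1, Ctsd, was lower, a call lost with library size alone and without double positive replicate 8. Ctsl, a lysosomal protease, stood at 5.12, 5.07 and 2.61 against 3009 and 2402 CPM (634-fold higher, adjusted p = 1.57e-06), Npc2, which exports cholesterol from lysosomes, at 17.9, 23.8 and 24.8 against 477 and 487 CPM (21.8-fold higher), and the tetraspanin Cd63 at 0 against 1248 and 1023 CPM (at least 3983-fold higher).

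Ribosomal protein genes had a direction that rested on the scaling. With TMM factors 36 of 49 were lower and none higher (median −0.68), but with library size alone 4 were lower and 15 higher (median 0.21), and without double positive replicate 7 18 were lower and 1 higher. Rplp0, of the ribosomal stalk, was lower by most, at 4275, 4328 and 4044 against 1039 and 1469.9 CPM (3.36-fold lower, adjusted p = 7.06e-05). Pseudogene copies can share reads with these genes, so their counts are uncertain. Respiratory chain genes were higher for 19 of 34 and lower for 1, Ndufv1, a call lost with library size alone and without erythroid replicate 4 or 6 or double positive replicate 7 or 8 (median 0.60, close to the 0.71 of all genes). Upper quartile factors gave 12 higher and 5 lower, library size alone 31 and 0, and leaving out double positive replicate 8 11 and 0. Cox5a, a subunit of cytochrome oxidase, stood at 147, 139 and 145 against 502 and 481 CPM (3.43-fold higher, adjusted p = 2.66e-05).

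**Figure D5:**
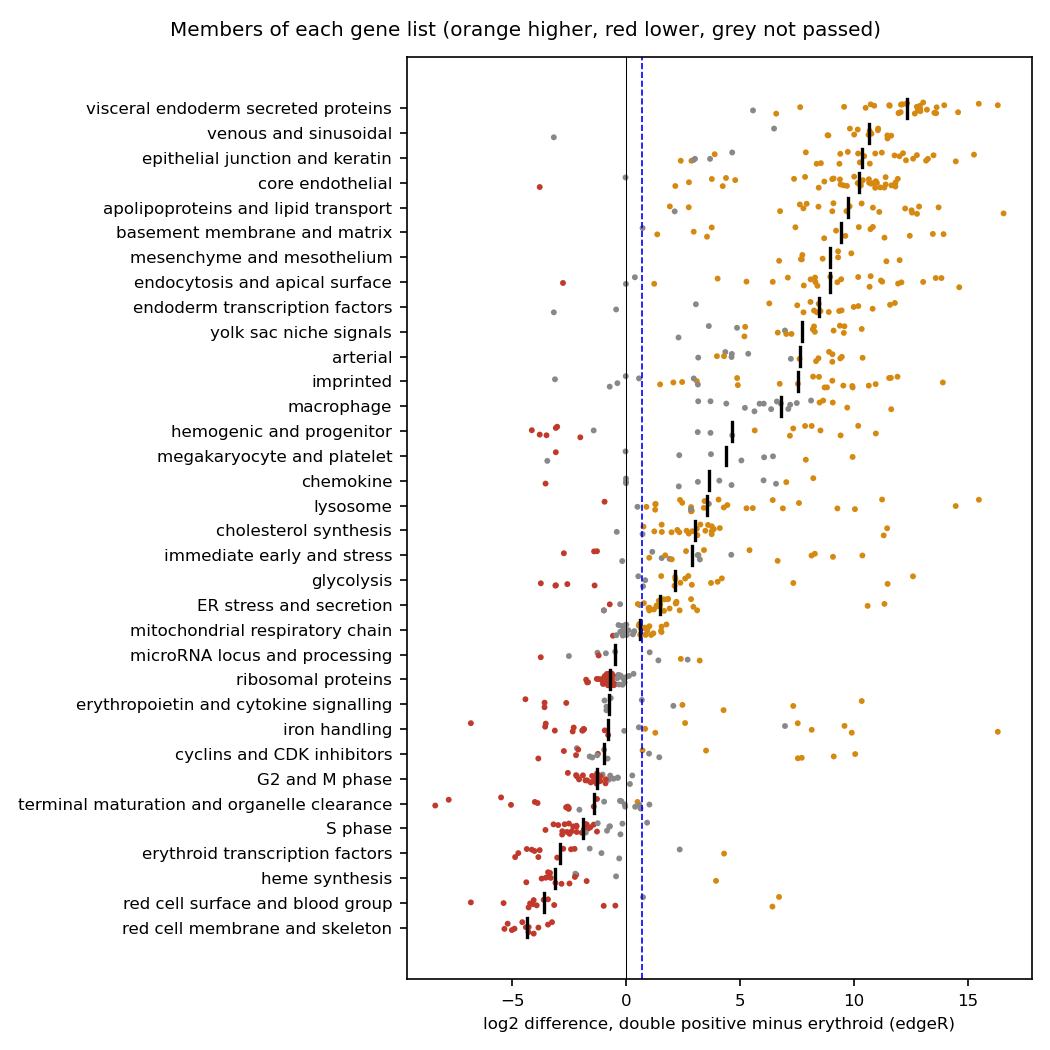
Log2 difference, double positive minus erythroid, of each tested member of the gene lists with at least 9 tested members, with the list median as a black bar, 0 as a solid line and the median of all tested genes (0.71) as a dashed line. Values past about 7 mostly belong to genes at 0 in the erythroid libraries, where the fitted size depends on the prior count and is no bound. Red cell lists lie at the bottom, S, G2 and M phase lists above them, and visceral endoderm and vessel lists at the top.

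Imprinted genes, which are expressed from 1 parental copy and often act in fetal growth, were higher for 22 of 29 and lower for none (median 7.54, or 5.29 with genes at 0 at their bound). Igf2, a fetal growth factor, stood at 2.79, 3.80 and 1.30 CPM in erythroid and 849 and 739.6 CPM in double positive libraries (302-fold higher, adjusted p = 5.06e-06), and H19, its neighbouring noncoding RNA, at 417, 448 and 305 against 2500.5 and 1806 CPM (5.52-fold higher, adjusted p = 0.000379). Mest, a hydrolase-like gene of mesoderm, stood at 0 against 359 and 399 CPM (at least 1329-fold higher), with 2437 to 3738 CPM in the endothelial libraries. Impact, an inhibitor of the kinase GCN2, stood at 6.52, 5.70 and 10.4 against 253 and 199 CPM (29.96-fold higher), where the endothelial libraries held 32.3 to 37.4 CPM. Ascl2 averaged 8.83 against 0.999 CPM, did not pass here, and was called lower under 8 of 18 alternatives, among them DESeq2 and limma-voom. Whether counting used strand is not given in the sources used here, so overlapping noncoding genes such as Airn and Kcnq1ot1 are uncertain.

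Signals that act on blood and vessels were almost absent from the erythroid pools. Of 27 niche signal genes 23 had no count there, and 14 of the 18 tested were higher in the double positive pools (7 without replicate 7 and 9 without replicate 8). Igf1 stood at 0 against 9.16 and 28.1 CPM (at least 65.3-fold higher, adjusted p = 0.000557), and Vegfc, a ligand of the vessel receptor Flt4, at 0 against 7.45 and 7.94 CPM (at least 27.0-fold higher). Thpo, which encodes thrombopoietin, averaged 18.9 CPM against 0 (a call lost without replicate 7), and Epo had 0 counts in all 5 libraries. Of 18 chemokine genes 12 passed the filter, with 2 higher and 1 lower, beside 31.5% and 10.6% of all tested genes. The lower one, the scavenging receptor gene Ackr3, stood at 129, 221 and 113 against 14.7 and 12.01 CPM (11.6-fold lower, adjusted p = 0.0109). Its call was lost without replicate 7 or without replicate 8. Immediate early and stress genes were higher for 12 of 22 and lower for 3, beside 31.5% and 10.6% of all tested genes. The lower ones were Btg2, Hspa1a and Myc, of which 1, Myc, was lower with library size alone. The Btg2 call was also lost without double positive replicate 7 or 8. Hspa1b, a near copy of Hspa1a, was called higher, a call lost without double positive replicate 7. The split of reads between these copies is uncertain. Atf3, a stress factor, stood at 0 against 25.4 and 40.1 CPM (at least 115-fold higher, adjusted p = 0.00116), and Klf2, the flow-responsive factor of endothelium, at 0 against 14.7 and 12.01 CPM (at least 46.8-fold higher).

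Detection itself differed between the groups. There were 3604 genes with no count in any erythroid library and counts in both double positive libraries, against 21 the other way round. Counts were found in all 3 erythroid libraries for 7421 genes and in both double positive libraries for 13033 genes. Of the 3820 higher genes 2162 were at 0 in all erythroid libraries. Of the 1283 lower genes 8 were at 0 in both double positive libraries, and they are named here after their values were seen: Alox15, Apol8, Artn, Fam65c, Gfap, Nhlrc4, Trem1 and Ypel4. Globin reads took 54.5% or more of each erythroid library, which leaves fewer counts for other genes there, and the part of depth in these numbers was not tested.

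The 2 double positive pools resembled each other, with a Spearman correlation of log CPM of 0.964 across tested genes. Between erythroid pools it was 0.911 to 0.915, and genes are not independent replicates. Of the tested genes 2912 had 0 counts in all erythroid libraries. A chi-square of the counts of a pair, per degree of freedom, was 15.8 for the double positive pools and 14.5 to 17.6 for the erythroid pairs. Of the lists that summed to over 100 CPM in both, the largest ratios were of macrophage and embryonic globin genes, for which replicate 8 held 1.84 and 1.75 times the CPM of replicate 7. The ratio was 1.37 for cholesterol synthesis, 1.33 for ribosomal protein, 1.32 for core endothelial and 1.26 for heme genes. The lowest were 0.772 for matrix and 0.777 for glycolytic genes, and the visceral endoderm secreted list was at 0.997. Megakaryocyte and platelet genes were at 5.37 and lymphoid genes at 5.43, from sums of 17.0 and 2.10 CPM in replicate 7. With 2 pools these ratios have no test.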

How the data were processed

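RNA from pools of sorted yolk sac cells was sequenced after Smart-seq2 amplification, per the labels' protocols. The authors deposited 1 table of unscaled read counts for 24454 gene symbols. The submitters' processing notes name FastQC, HTSeq and mm10, while the aligner, its settings, the annotation, the strandedness of counting and all versions were not given in the sources used here. Libraries were grouped by the sorting gates in their titles, and no replicate pair was identical.

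Counts were analysed in R 4.3.3 with edgeR 4.0.16 (filterByExpr at a minimum count of 10, TMM factors, robust quasi-likelihood fit to all 8 libraries, Benjamini-Hochberg adjusted p under 0.05, two-sided), with limma 3.58.1 and DESeq2 1.42.0 as alternatives, and in python 3.11.15 with matplotlib 3.10.9. The fit was also run on counts simulated from its own estimates of spread, which cannot test the scaling or the spread of the real pools. Depth ran from 4637930 to 7618444 counts in the 5 libraries compared. A group at 0 was set to a floor of 3 counts over the group, and groups with 1 to 3 counts have a 95% counting interval.

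The comparison, the 38 gene lists (813 symbols, 809 in the table, 721 tested) and the rule for naming genes were chosen with earlier results of these data known. The rule named Cdh5 and Mir144, the 12 largest rises and falls at 50 CPM or more without overlapping libraries, up to 4 members of each list by adjusted p, and 1 set of lineage genes whatever their values. Other list members are given by mean, and some genes that the rule names are not reported here. Promoters and microRNAs were read from RefSeq (GRCm38.p6), with a promoter for 9346 of the 12136 tested genes, and gene positions from GENCODE on GRCm38. No set test was run. Alternatives were other scalings, filters, tools, the 5 libraries alone and each library left out.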

Additional observations from a re-analysis of the deposited data

How the results depend on the processing

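With library size alone 5754 genes were higher and 474 lower in the double positive pools, against 3820 and 1283 with TMM factors, so 92.4% rather than 74.9% of called genes were higher, and with this scaling the median of all genes moved by 0.90. Leaving out 1 library at a time gave 2315 to 3845 higher and 609 to 1348 lower genes, the lowest counts without double positive replicate 7 (2315 and 609) and replicate 8 (2401 and 674), where 1 double positive library remained and was assumed to vary like the other groups. The other scalings, filters and tools gave 3132 to 4275 higher and 1161 to 1702 lower genes. Red cell genes lower per embryonic globin count numbered 15, and 8 to 25 when 1 library was left out, with 8 without erythroid replicate 6 and 25 without double positive replicate 7. Of 163 genes named by the rule and past the test 12 lost their call under at least 1 alternative and 0 reversed. Of all 558 list members past the test, which include the others given in the text, 176 lost their call under at least 1 alternative, 145 of them without double positive replicate 7 or 8, and 3 (Bsg, Rpl15 and Rps20) were called higher instead of lower with library size alone. The causes were not tested. No paired analysis was possible because the labels do not say which embryos the pools came from. Depth limits what can be said of genes at 0 in the erythroid pools, and 2 double positive pools limit every estimate of their spread.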
